A study of Homo sapiens with 16 samples.

Results

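The genes described here are 35 genes of the unfolded protein response and of its transcription factor ATF4. They were chosen by name from the pathway, with earlier results of these data known. Each was found under its Ensembl identifier among the 64792 identifiers of the count table, and 33 of the 35 passed the filter on low counts that left 14690 genes for testing. They fall into 5 sensors and transducers, 7 transcription factors around ATF4, 5 effectors downstream of it, 11 chaperones and co-chaperones of the endoplasmic reticulum (ER), 3 disulfide isomerases and 4 genes of ER-associated degradation. The RNA came from DU145, an established cell line from a human prostate carcinoma. There were 4 libraries in each of 4 groups: cells given lactate together with I-BET762, cells given lactate, cells given I-BET762, and control cells. I-BET762 is a small molecule that occupies the acetyl-lysine pocket of BET bromodomain proteins, which read acetylated histones. Neither a dose nor a duration is given in the labels, no vehicle is named for the control cells, and the cell line field of the samples with both treatments does not read DU145, so their titles were followed. The question is how these genes differed with lactate, with the inhibitor and with both.

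The unfolded protein response starts at sensors in the ER membrane. EIF2AK3 (PERK) phosphorylates the translation factor eIF2, which lowers protein synthesis but favours translation of ATF4, while ERN1 (IRE1) splices the messenger RNA of XBP1 and ATF6 is cut to release a transcription factor. The cytosolic kinase EIF2AK4 (GCN2) reaches ATF4 by the same phosphorylation when amino acids run short. ATF4 drives genes of amino acid supply and of the stress program, whereas ATF6 and spliced XBP1 drive the chaperones of the ER, so these sets are described apart. Messenger RNA levels show neither the phosphorylation of eIF2, nor translation of ATF4, nor splicing of XBP1, none of which was measured.

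The libraries held 10711859 to 17173584 counts. Summed levels of 5 epithelial markers lay between 1880 and 3460 CPM in every library (CPM is a gene's count scaled to the size of its library), those of 4 leukocyte markers between 0.855 and 3.03 CPM and those of 4 fibroblast markers between 3.42 and 10.3 CPM. PTPRC, which defines leukocytes, had at most 1 count and the fibroblast gene DCN had 0 counts, while the collagen gene COL1A1 had 40 to 141 counts, CD14 up to 33 and CD68 up to 21. The fibroblast sum was 5.05 to 10.3 CPM in the Lactate+I-BET762 libraries, 4.01 to 8.92 CPM in the Lactate libraries, 4.22 to 6.62 CPM in the I-BET762 libraries and 3.42 to 4.21 CPM in the Control libraries, and its part in the results was not tested. The luminal prostate markers KLK3 and TMPRSS2 had at most 1 and 3 counts, and other markers of this list are not reported here. HEXIM1, which BET inhibitors are known to induce, was used to check which libraries had received I-BET762. The library labelled I-BET762 replicate 2 had 89.6 CPM, against 113.2 to 148.8 CPM in the other I-BET762 libraries, and the library labelled Control replicate 2 had 135.1 CPM, against 70.0 to 77.4 CPM in the other Control libraries. The Lactate libraries had 69.6 to 86.0 CPM and the Lactate+I-BET762 libraries 115.1 to 156.9 CPM. Control replicate 2 thus lay within the range of the libraries given the inhibitor. I-BET762 replicate 2 lay below the other libraries given it, but above all libraries without it other than Control replicate 2. These 2 libraries are referred to below as the pair that went against their labels. Groups and replicates are named below as labelled, and results are given without this pair where that changes a call. Lactate replicates 1 and 4 also stood apart. Across genes, the correlation of each gene's deviation with its exon length was -0.40 and -0.42 (Spearman's rho) in these libraries, against 0.24 and 0.10 in Lactate replicates 2 and 3. The same correlation with GC content was 0.06 to 0.43 in the Lactate+I-BET762 libraries, -0.02 to 0.32 in the Lactate libraries, -0.18 to 0.17 in the I-BET762 libraries and -0.55 to -0.30 in the Control libraries. It thus set every Control library below all others, and calls against Control are given below also from a fit with an offset for each library's trend on GC content and exon length where that changes them. Counts of genes whose exons overlap another gene are uncertain, since the strand setting of the counting is not given. Besides those named below, this holds for DDIT3 (MARS and MBD6), DNAJB9 (THAP5 and PNPLA8), HSP90B1, PDIA3, DNAJB11, PDIA6, CEBPB and ASNS. It also holds for CALR, CANX, EIF2AK3, EDEM1 and HYOU1.

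The promoters of 5 genes are shown because they carry sequence elements linked to branches of the response. They were chosen after their values were seen, and called genes without a match are not shown. HSPA5 among them was not called in any comparison of the main fit. The searched elements were the ER stress response element (CCAAT, 9 bases of any kind, then CCACG), its shorter form ERSE-II (ATTGG, 1 base, then CCACG), the C/EBP-ATF response element of ATF4 (TGATGNAA) and a core of the XBP1 element (TGACGTG). Both strands were searched in the 250 bases before each gene's start in the RefSeq table on GRCh38.p14, in which 33 of the 35 genes were found. The HSPA5 stretch is chr9:125241344-125241593 on the minus strand, with the ER stress response element 66 to 48 bases before the start in capitals. In SDF2L1, chr22:21642052-21642301 on the plus strand, the capitals mark ERSE-II read on the opposite strand, 188 to 178 bases before the start. In CRELD2, chr22:49918384-49918633 on the plus strand, they mark the ER stress response element on the opposite strand, 80 to 62 bases before the start. In CHAC1, chr15:40953221-40953470 on the plus strand, they mark the ATF4 element on the opposite strand, 209 to 202 bases before the start. In CEBPG, chr19:33373863-33374112 on the plus strand before the second of 2 listed starts, they mark the ATF4 element, 42 to 35 bases before that start.
HSPA5: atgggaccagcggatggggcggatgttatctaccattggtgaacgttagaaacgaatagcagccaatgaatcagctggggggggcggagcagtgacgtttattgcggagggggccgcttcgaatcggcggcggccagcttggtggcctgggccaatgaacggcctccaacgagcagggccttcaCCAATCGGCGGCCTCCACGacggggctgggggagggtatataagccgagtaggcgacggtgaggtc
SDF2L1: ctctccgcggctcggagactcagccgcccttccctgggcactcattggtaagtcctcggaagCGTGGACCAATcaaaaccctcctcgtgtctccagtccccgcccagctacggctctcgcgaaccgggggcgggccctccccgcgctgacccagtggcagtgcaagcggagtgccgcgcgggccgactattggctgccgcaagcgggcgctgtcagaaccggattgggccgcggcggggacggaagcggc
CRELD2: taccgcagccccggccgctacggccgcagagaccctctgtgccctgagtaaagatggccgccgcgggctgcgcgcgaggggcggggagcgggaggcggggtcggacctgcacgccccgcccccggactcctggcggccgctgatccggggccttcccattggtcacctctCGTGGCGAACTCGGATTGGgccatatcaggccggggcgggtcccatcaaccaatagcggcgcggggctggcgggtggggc
CHAC1: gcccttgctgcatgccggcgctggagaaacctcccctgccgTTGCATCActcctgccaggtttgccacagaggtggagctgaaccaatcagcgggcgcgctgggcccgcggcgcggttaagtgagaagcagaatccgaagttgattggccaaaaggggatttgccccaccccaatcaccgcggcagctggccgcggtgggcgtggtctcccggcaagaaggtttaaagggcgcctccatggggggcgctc
CEBPG: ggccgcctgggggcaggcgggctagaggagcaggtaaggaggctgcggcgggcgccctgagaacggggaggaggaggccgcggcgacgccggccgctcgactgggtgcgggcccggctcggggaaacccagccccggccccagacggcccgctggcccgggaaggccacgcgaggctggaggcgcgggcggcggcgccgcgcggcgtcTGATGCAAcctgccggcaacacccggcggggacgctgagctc

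The ER stress response element was found in 7 of the 33 genes (CALR, CANX, CRELD2, HSP90B1, HSPA5, PDIA6 and XBP1), against 0.092% of 27305 genes. ERSE-II was found in HERPUD1, HYOU1 and SDF2L1, against 0.066% of all genes. The ATF4 element was found in ASNS, ATF3, CEBPG, CHAC1 and HERPUD1, against 3.886% of all genes. The XBP1 core was found in HYOU1 alone of the 33, against 2.055% of all genes. HYOU1 held the XBP1 core and ERSE-II in overlapping positions. The elements were defined from genes of this kind, so their frequency here is a description, and a match does not show that a factor was bound in these cells. No match was found for the called genes MANF and ATF5 in the bases searched, which says only that these letters are not in them. HERPUD1 held both the ATF4 element and ERSE-II, so the elements do not by themselves tell the branches apart.

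Levels differed widely between the genes. Per kilobase of exon, the highest Control means were those of CALR, a lectin chaperone that holds calcium (290.0 CPM per kilobase), HSPA5, the main HSP70 chaperone of the ER known as BiP (266.0), HSP90B1, its HSP90 chaperone (245.0), and ATF4 (236.0). The disulfide isomerases PDIA6, PDIA4 and PDIA3 followed at 180.0, 134.0 and 133.0 CPM per kilobase. The sensors were far lower: EIF2AK4 stood at 17.3, ATF6 at 7.63, EIF2AK3 at 5.65 and ERN1 at 3.13 CPM per kilobase in Control cells. SESN2, a stress-induced regulator of growth signalling, had 0 counts in every library, which allows at most 0.175 to 0.28 CPM per library (3 counts, counting error only). HYOU1, a partner of BiP, had 0 or 1 count and was not tested either. ASNS, asparagine synthetase, had 15 to 48 counts and CANX, the membrane-bound lectin chaperone, 1 to 42 counts. How the authors' counting treated these 4 genes is not given in the sources used here, so their low counts were not read as absence or low expression of the transcripts.

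**Figure D1:**
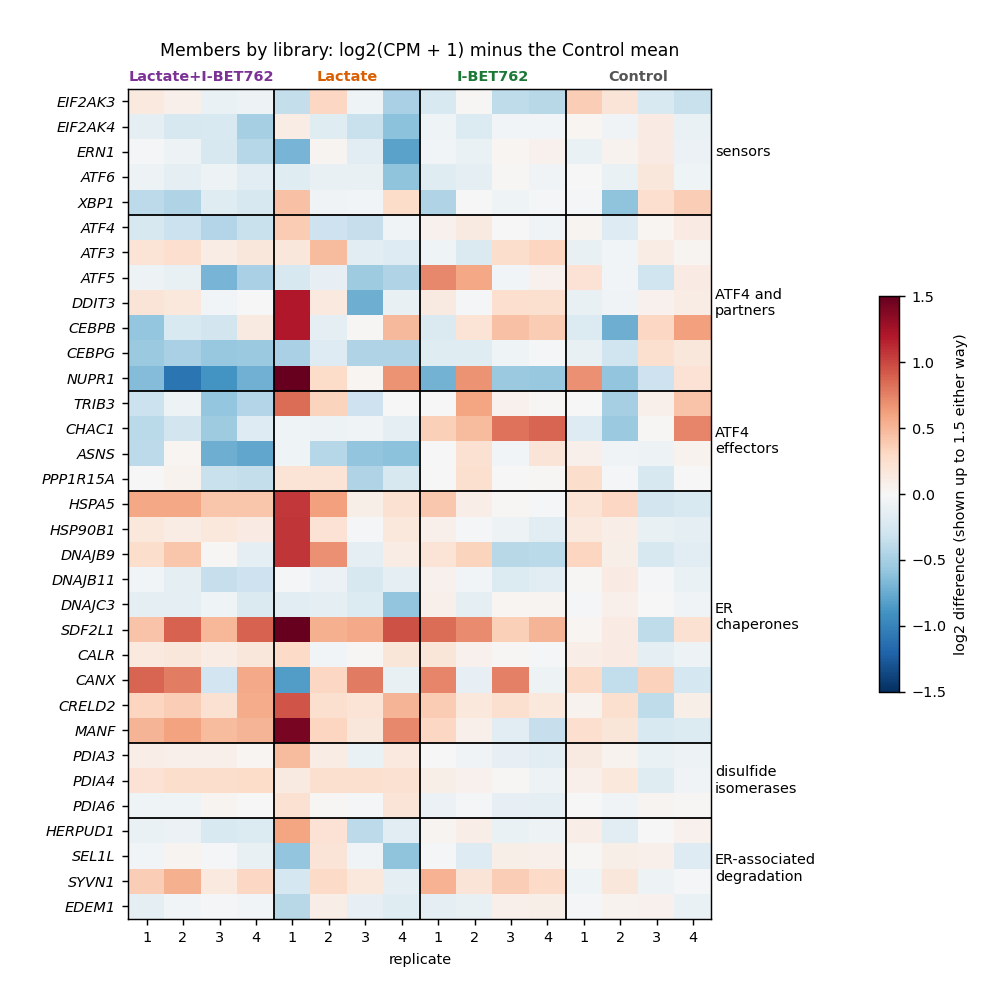
Difference of log2(CPM + 1) from the Control mean for the 33 tested genes (rows, by role) in the 16 libraries (columns, by group and replicate), with red above and blue below the Control mean. Lactate replicate 1 is the reddest column in SDF2L1, MANF, HSPA5 and HSP90B1, and CEBPG is blue in all 4 Lactate+I-BET762 and all 4 Lactate libraries.

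Lactate against control was the first comparison. Of 33 tested genes, 3 rose with lactate, all of them ER chaperones or co-chaperones (SDF2L1, MANF and CRELD2), and 1 fell, the ATF4 partner CEBPG (12.1% called). Of all 14690 genes, 23.7% were called in this comparison, a share that the genes of the response did not exceed. Of the 10 tested chaperones and co-chaperones, 8 had a log2 fold change above 0 with a median of 0.45, against a median of 0.03 over all genes. This rested much on Lactate replicate 1. Over the 9 of them averaging at least 10 CPM, its mean log2 difference from the Control mean was 0.85. Lactate replicates 2 to 4 stood at 0.26, 0.05 and 0.24, and the Control libraries at -0.2 to 0.15. Of the 33 genes, 3 had libraries that did not overlap between the groups (9.09%), against 20.0% of all genes. These were SDF2L1, higher in lactate, and ATF6 and DNAJC3, both lower in lactate and neither called by edgeR (DESeq2 called DNAJC3).

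SDF2L1, a component of the BiP folding cycle encoded at chr22:21642261-21644298 (GRCh38, GENCODE release 29), had 40.5, 14.1, 14.4 and 19.2 CPM in the Lactate libraries in order of replicate, against 9.6, 10.3, 6.96 and 11.2 CPM in the Control libraries. Every Lactate library exceeded every Control library, and Lactate replicate 1 was far above the rest. The log2 fold change was 1.20 ± 0.28 (SE), with an adjusted p of 0.00754. Without Lactate replicate 1 it was 0.74, with an adjusted p of 0.0091. SDF2L1 has the shortest exon sequence of the 35 genes, 1099 bases at 65.5% GC. With the offset its log2 fold change was 0.26 and its adjusted p 0.375, and the call was lost.

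MANF, a stress-induced protein of the ER lumen that is also secreted, encoded at chr3:51385047-51389397, had 220.1, 102.0, 91.2 and 134.6 CPM in the Lactate libraries, against 97.1, 92.5, 68.9 and 70.1 CPM in the Control libraries. The groups overlapped, with Lactate replicate 3 below Control replicates 1 and 2. Its log2 fold change was 0.74 ± 0.22 (SE), with an adjusted p of 0.0246. CRELD2, another stress-induced protein of the ER at chr22:49918167-49927540, had 49.6, 30.0, 29.3 and 36.4 CPM in the Lactate libraries, against 26.4, 30.2, 19.2 and 27.0 CPM in the Control libraries. Only Control replicate 2 reached into the Lactate range. Its log2 fold change was 0.50 ± 0.16 (SE), with an adjusted p of 0.0378. Without Lactate replicate 1 neither gene was called, at 0.41 for MANF (adjusted p 0.0676) and 0.31 for CRELD2 (adjusted p 0.104) on the log2 scale. Leaving out single libraries ended the call of MANF in 4 of 16 fits and that of CRELD2 in 5 of 16, and with the offset neither was called (adjusted p 0.0587 and 0.0979). The exons of CRELD2 overlap those of ALG12 on the opposite strand, so its counts are uncertain.

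HSPA5 lay at the edge of the threshold. It had 2129.7, 1561.6, 1084.8 and 1199.2 CPM in the Lactate libraries, against 1174.3, 1264.9, 844.9 and 868.8 CPM in the Control libraries. The groups overlapped, since Lactate replicate 3 was below Control replicates 1 and 2. Its log2 fold change was 0.52 ± 0.19 (SE), with an adjusted p of 0.0501. It was called in 5 of 9 alternative fits, DESeq2 (adjusted p 0.0373) and the fit without the pair of libraries that went against their labels (0.63, adjusted p 0.0489) among them, and in 3 of 16 fits that left out a single library. With the offset it was not called, at 0.57 (adjusted p 0.0511). HSP90B1 averaged 1533.4 ± 586 CPM in Lactate and 1151 ± 118 CPM in Control cells (SD, n = 4 each), and its log2 fold change was 0.41 ± 0.18 (SE) with an adjusted p of 0.093. Its Lactate mean rested on replicate 1 at 2402.7 CPM, with the other Lactate libraries at 1126.4 to 1328.2 CPM. DNAJB9, a BiP co-chaperone, had a log2 fold change of 0.50 ± 0.24 (SE) with an adjusted p of 0.14. CALR, PDIA3, PDIA4 and PDIA6 had log2 fold changes of 0.11 to 0.20 and were not called. The co-chaperones DNAJC3 and DNAJB11 had log2 fold changes of -0.27 and -0.13 and were not called.

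**Figure D2:**
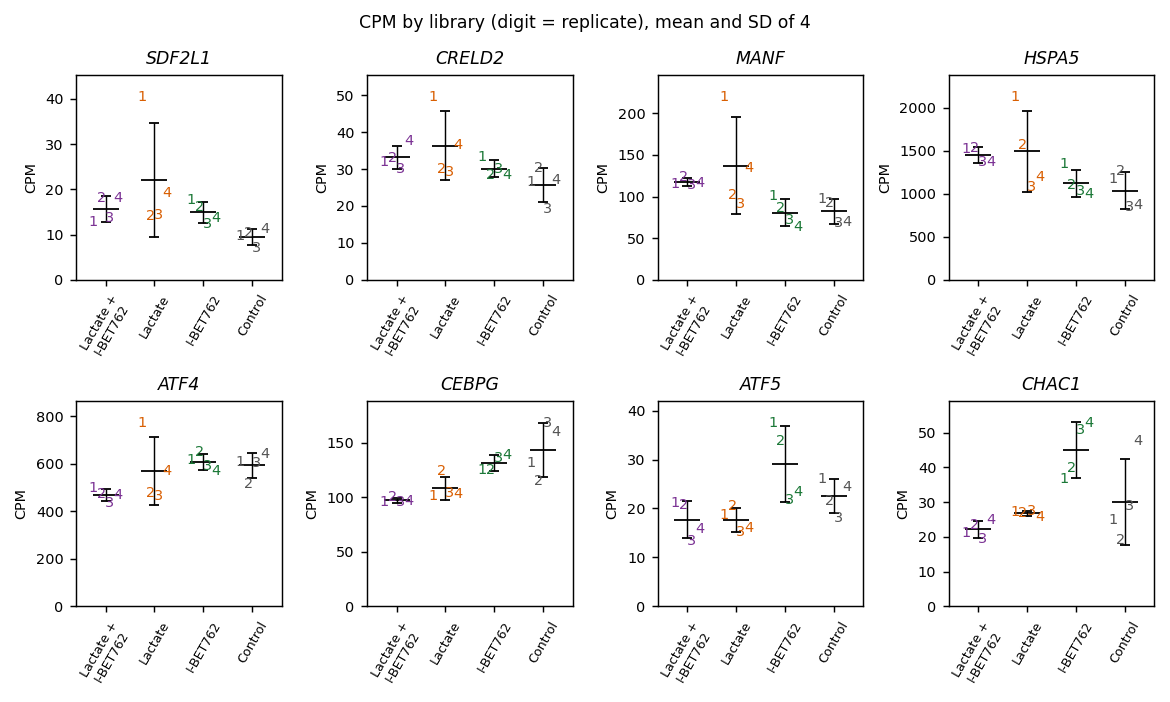
CPM of 8 genes in each library, with the digit giving the replicate and the bar the mean and SD of the 4 replicates of a group. In SDF2L1, CRELD2, MANF and HSPA5, Lactate replicate 1 is the highest library, and in CEBPG and CHAC1 all Lactate+I-BET762 libraries lie below all I-BET762 libraries.

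The sensors and the ATF4 branch gave 1 call between them with lactate. None of the 5 sensors and transducers was called by edgeR or DESeq2, and 4 of the 5 had a log2 fold change below 0. At an unadjusted p under 0.05 there were 2, beside 39.5% of all genes. XBP1, which carries the IRE1 signal, had 153.0, 108.5, 109.6 and 135.8 CPM in the Lactate libraries, against 110.7, 73.8, 133.7 and 145.9 CPM in the Control libraries. The ranges overlapped, with a log2 fold change of 0.13 ± 0.18 (SE) and an adjusted p of 0.621. Lactate replicate 4 was low for ATF6, at 39.0 CPM, against 53.0 to 55.7 CPM in the other Lactate libraries and 55.8 to 67.5 CPM in the Control libraries. ERN1 had a log2 fold change of -0.37 ± 0.16 (SE), with an adjusted p of 0.1.

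CEBPG, a C/EBP protein that pairs with ATF4, is encoded at chr19:33373330-33382686. It had 101.0, 124.1, 103.7 and 103.4 CPM in the Lactate libraries, against 131.3, 115.2, 168.3 and 159.5 CPM in the Control libraries. It fell by 0.41 ± 0.11 (SE) on the log2 scale with lactate, with an adjusted p of 0.0169, and the groups overlapped only through Control replicate 2 and Lactate replicate 2. The call was lost without Control replicate 3 (log2 fold change -0.33) and without Control replicate 4 (-0.35). ATF4 itself, at chr22:39519695-39522685, had 772.8, 475.1, 466.4 and 567.9 CPM in the Lactate libraries, against 608.6, 516.9, 605.5 and 642.1 CPM in the Control libraries. Lactate replicate 1 was the highest of these 8 libraries and replicates 2 and 3 the lowest. The log2 fold change of ATF4 was -0.06 ± 0.14 (SE), with an adjusted p of 0.782. It was -0.37 and called with the offset for GC content and length, and -0.33 and called with Lactate replicates 1 and 4 left out.

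DDIT3 encodes CHOP, the factor linked to cell death under ER stress. It had 86.8, 41.2, 22.0 and 34.5 CPM in the Lactate libraries, against 34.4, 35.7, 38.9 and 40.2 CPM in the Control libraries. The Lactate libraries held both the highest and the lowest of these 8 values. Its log2 fold change of 0.30 ± 0.27 (SE) was not called and turned to -0.20 without Lactate replicate 1. TRIB3, a pseudokinase induced by ATF4 and CHOP, had 185.1, 130.2, 83.1 and 103.7 CPM in the Lactate libraries, against 102.8, 73.0, 108.6 and 138.4 CPM in the Control libraries, with a log2 fold change of 0.25 ± 0.23 (SE) and an adjusted p of 0.434. CHAC1, an enzyme that degrades glutathione, encoded at chr15:40952962-40956519, had 27.1, 26.9, 27.4 and 25.7 CPM in the Lactate libraries, against 24.8, 19.0, 28.9 and 47.7 CPM in the Control libraries. The Lactate libraries lay within the Control range, with a log2 fold change of -0.17 ± 0.21 (SE) and an adjusted p of 0.573. With the offset for GC content and length, CHAC1 was called at a log2 fold change of -0.81. ASNS had 2.34, 1.58, 1.30 and 1.26 CPM in the Lactate libraries, against 2.67, 2.35, 2.30 and 2.62 CPM in the Control libraries. Lactate replicate 1 reached the Control range, and the log2 fold change was -0.65 ± 0.27 (SE) with an adjusted p of 0.0883. The log2 fold changes of ATF3, ATF5, CEBPB, NUPR1 and PPP1R15A ran between -0.36 and 0.88, and none was called. With the offset 5 of the 33 genes were called with lactate, beside 15.8% of all genes, with ATF4, ATF5 (-0.77), CEBPG and CHAC1 lower and HSP90B1 (0.52) higher.

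HERPUD1, which scaffolds the degradation machinery of the ER membrane, had 152.3, 118.1, 77.1 and 90.2 CPM in the Lactate libraries, against 108.1, 89.6, 101.8 and 105.8 CPM in the Control libraries. The Lactate libraries lay on both sides of the Control range, with a log2 fold change of 0.11 ± 0.15 (SE) and an adjusted p of 0.628. SEL1L and SYVN1, the core of the HRD1 ubiquitin ligase, had log2 fold changes of -0.23 and 0.03, and EDEM1, which marks glycoproteins for disposal, had -0.14. None of the 4 degradation genes was called by edgeR or DESeq2, and none had an unadjusted p under 0.05, beside 39.5% of all genes.

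Further genes of the pathway were read from 4 lists of 72 genes in all. These lists were chosen with earlier results of these data known. A share above that of all genes is therefore only a description. Of 17 tested further ATF4 targets, 7 fell with lactate and 1 rose (47.1% called, beside 23.7% of all genes), with a median log2 fold change of -0.29. SLC7A11, the cystine transporter, averaged 67.5 ± 16.2 CPM in Lactate and 127 ± 21.0 CPM in Control cells (SD, n = 4 each), and it fell by 0.91 ± 0.16 (SE) on the log2 scale (adjusted p 0.00133). MTHFD2, a mitochondrial folate enzyme, fell by 0.54 ± 0.10 (adjusted p 0.00211), and PSAT1, a serine synthesis enzyme, fell by 0.69 ± 0.13 (adjusted p 0.00237). The gene that rose was DDIT4, an inhibitor of mTORC1 signalling that hypoxia also induces, at 180 ± 59.4 CPM in Lactate and 92.8 ± 17.5 CPM in Control cells, a log2 fold change of 0.96 ± 0.21 (adjusted p 0.00468). With the offset for GC content and length, 5 of the targets fell and none rose, DDIT4 having a log2 fold change of 0.57 (adjusted p 0.0635). With lactate 16 of these 17 targets had a log2 fold change below 0 (15 with the offset). Of 13 tested chaperones and isomerases, 11 had one above 0 (11 with the offset). The 11 tested genes of ATF4, its partners and its effectors were split, with 6 below 0 and 5 above (8 and 3 with the offset). Their median log2 fold change was -0.06 (-0.37 with the offset).

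Of 19 tested genes of ER folding and translocation, 3 rose and 2 fell with lactate (26.3% called, beside 23.7% of all genes). SIL1, a nucleotide exchange factor for BiP, averaged 33.8 ± 5.6 CPM in Lactate and 18.9 ± 2.38 CPM in Control cells, a log2 fold change of 0.84 ± 0.13 (SE) with an adjusted p of 0.000874. KDELR3, a receptor that returns ER proteins from the Golgi, rose by 0.55 ± 0.13 (adjusted p 0.0093), and the prolyl isomerase FKBP14 fell by 0.60 ± 0.12 (adjusted p 0.00328). Of 13 genes of eIF2 control, 3 fell and none rose (23.1% called). EIF2S3, a subunit of eIF2, fell by 0.61 ± 0.14 (adjusted p 0.00553). The kinase EIF2AK2 (PKR) fell by 0.57 ± 0.14 (adjusted p 0.0108), and PPP1R15B, a subunit of an eIF2 phosphatase, fell by 0.56 ± 0.14 (adjusted p 0.0109). Of 19 tested genes of ER quality control and signalling, 1 rose and 2 fell (15.8% called). None of these 3 shares is far above that of all genes, and nothing is read from them about the lists. The mannosidase EDEM3 fell by 0.68 ± 0.16 (adjusted p 0.00745), the extraction ATPase VCP fell by 0.31 ± 0.11 (adjusted p 0.0485), and the cell death effector BAX rose by 0.40 ± 0.14 (adjusted p 0.0433). With the offset BAX had a log2 fold change of 0.00 and was not called. Without the pair of libraries that went against their labels, none of these 19 rose and 1 fell, beside 17.3% of all genes called.

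Lactate in the presence of the inhibitor was read from the libraries with both treatments against those with I-BET762. In the ATF4 branch CHAC1, ATF5 and CEBPG fell with lactate here, and none of the 33 genes rose (9.09% called, beside 4.9% of all genes). Of the 11 tested genes of ATF4, its partners and its effectors, 10 had a log2 fold change below 0, with a median of -0.45, against a median of 0.0 over all genes. With the offset for GC content and length, 10 of these 11 were below 0, with a median of -0.71. Of the 13 tested chaperones and isomerases, 11 were above 0 with a median of 0.15 (10 with the offset). None of the 13 was called by edgeR or DESeq2, and 2 had an unadjusted p under 0.05, beside 19.6% of all genes. Between these groups 10 of the 33 genes had libraries that did not overlap (30.3%), beside 22.5% of all genes. They were CHAC1, CEBPG, ATF5, TRIB3 and ATF4 on the lower side, and MANF, PDIA4, HSPA5, HSP90B1 and PDIA3 on the higher side.

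CHAC1 had 21.2, 23.4, 19.3 and 24.7 CPM in the Lactate+I-BET762 libraries, against 36.6, 39.8, 50.7 and 52.8 CPM in the I-BET762 libraries. The groups were far apart, and CHAC1 fell by 1.02 ± 0.21 (SE) on the log2 scale, with an adjusted p of 0.00995. Leaving out any single library gave log2 fold changes between -1.11 and -0.94, all called. CEBPG had 95.9, 100.6, 95.7 and 96.5 CPM in the Lactate+I-BET762 libraries, against 125.4, 125.1, 136.2 and 138.9 CPM in the I-BET762 libraries. The 4 libraries with both treatments lay close together, and CEBPG fell by 0.44 ± 0.11 (SE), with an adjusted p of 0.0345. Leaving out any single library gave -0.46 to -0.41, and the call was lost in 8 of these 16 fits.

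ATF5, a factor related to ATF4 and encoded at chr19:49928702-49933935, had 21.2, 20.6, 13.4 and 15.7 CPM in the Lactate+I-BET762 libraries, against 37.5, 33.8, 21.7 and 23.4 CPM in the I-BET762 libraries. In both groups replicates 1 and 2 were above replicates 3 and 4, and the groups were separated by a narrow gap. It fell by 0.71 ± 0.19 (SE), with an adjusted p of 0.0416. Without the pair of libraries that went against their labels it was not called (log2 fold change -0.63, adjusted p 0.126). Leaving out any single library gave -0.83 to -0.57, and the call was lost in 9 of the 16 fits. The exons of ATF5 overlap those of NUP62 and IL4I1 on the opposite strand, so its counts are uncertain.

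ATF4 had 500.3, 472.3, 436.7 and 468.2 CPM in the Lactate+I-BET762 libraries, against 616.8, 649.7, 591.4 and 571.6 CPM in the I-BET762 libraries. The groups did not overlap, but the log2 fold change of -0.37 ± 0.14 (SE) had an adjusted p of 0.13. It was called with the offset for GC content and length, at -0.48. TRIB3 had 82.3, 97.4, 68.5 and 76.0 CPM in the Lactate+I-BET762 libraries, against 103.3, 156.2, 107.5 and 104.1 CPM in the I-BET762 libraries, with a log2 fold change of -0.54 ± 0.23 (SE) and an adjusted p of 0.188. ASNS had 1.65, 2.56, 1.10 and 1.02 CPM in the Lactate+I-BET762 libraries, against 2.49, 3.08, 2.38 and 2.98 CPM in the I-BET762 libraries. One Lactate+I-BET762 library reached the I-BET762 range, and the log2 fold change was -0.78 ± 0.27 (SE) with an adjusted p of 0.102. DDIT3 did not share this pattern, with 42.6, 41.6, 36.3 and 37.2 CPM in the Lactate+I-BET762 libraries, against 41.0, 36.6, 44.7 and 44.1 CPM in the I-BET762 libraries. Its log2 fold change was -0.08 ± 0.27 (SE), with an adjusted p of 0.92.

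No chaperone was called by edgeR or DESeq2 in this comparison. HSPA5 had 1524.9, 1528.9, 1367.3 and 1368.0 CPM in the Lactate+I-BET762 libraries, against 1351.5, 1098.7, 1033.3 and 1000.7 CPM in the I-BET762 libraries. The groups did not overlap, the highest I-BET762 library lying just under the lowest with both, and the log2 fold change was 0.37 ± 0.19 (SE) with an adjusted p of 0.292. MANF had 113.5 to 123.9 CPM in the Lactate+I-BET762 libraries, against 63.7 to 101.1 CPM in the I-BET762 libraries, a log2 fold change of 0.54 ± 0.22 (SE) with an adjusted p of 0.177. SDF2L1, called with lactate alone, had 12.9 to 18.2 CPM in the Lactate+I-BET762 libraries, against 12.3 to 17.6 CPM in the I-BET762 libraries. These ranges nearly coincided, and its log2 fold change was 0.08 ± 0.27 (SE) with an adjusted p of 0.918.

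XBP1 had 85.0, 81.7, 99.1 and 95.2 CPM in the Lactate+I-BET762 libraries, against 81.7, 112.7, 107.3 and 110.6 CPM in the I-BET762 libraries, and HERPUD1 had 94.5, 94.8, 86.1 and 87.5 CPM, against 103.7, 107.9, 94.5 and 95.6 CPM. Both pairs of groups overlapped, with log2 fold changes of -0.19 ± 0.18 and -0.15 ± 0.15 (SE), neither called. No sensor and no degradation gene was called by edgeR or DESeq2, and none of them had an unadjusted p under 0.05, beside 19.6% of all genes.

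Among further ATF4 targets, 6 of 17 fell and none rose with lactate in the presence of the inhibitor (35.3% called, beside 4.9% of all genes), with a median log2 fold change of -0.50. As the list was chosen with earlier results of these data known, this share is only a description. SLC7A11 averaged 55.8 ± 2.54 CPM in Lactate+I-BET762 and 116 ± 16.6 CPM in I-BET762 cells, and fell by 1.05 ± 0.16 (SE, adjusted p 0.00105). MTHFD2 fell by 0.64 ± 0.10 (adjusted p 0.00171) and PSAT1 by 0.82 ± 0.13 (adjusted p 0.00178). The others were SLC7A5, an importer of large amino acids, PHGDH, which opens serine synthesis, and the tRNA exporter XPOT. With the offset 9 fell, beside 7.86% of all genes called in that fit. None of the genes of eIF2 control, of ER folding and translocation or of ER quality control was called by edgeR in this comparison, while 4, 8 and 2 of them had an unadjusted p under 0.05 and DESeq2 called 2, 3 and 0. Of all genes, 19.6% had an unadjusted p under 0.05 here, and DESeq2 called 3.92% of those it fitted.

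**Figure D3:**
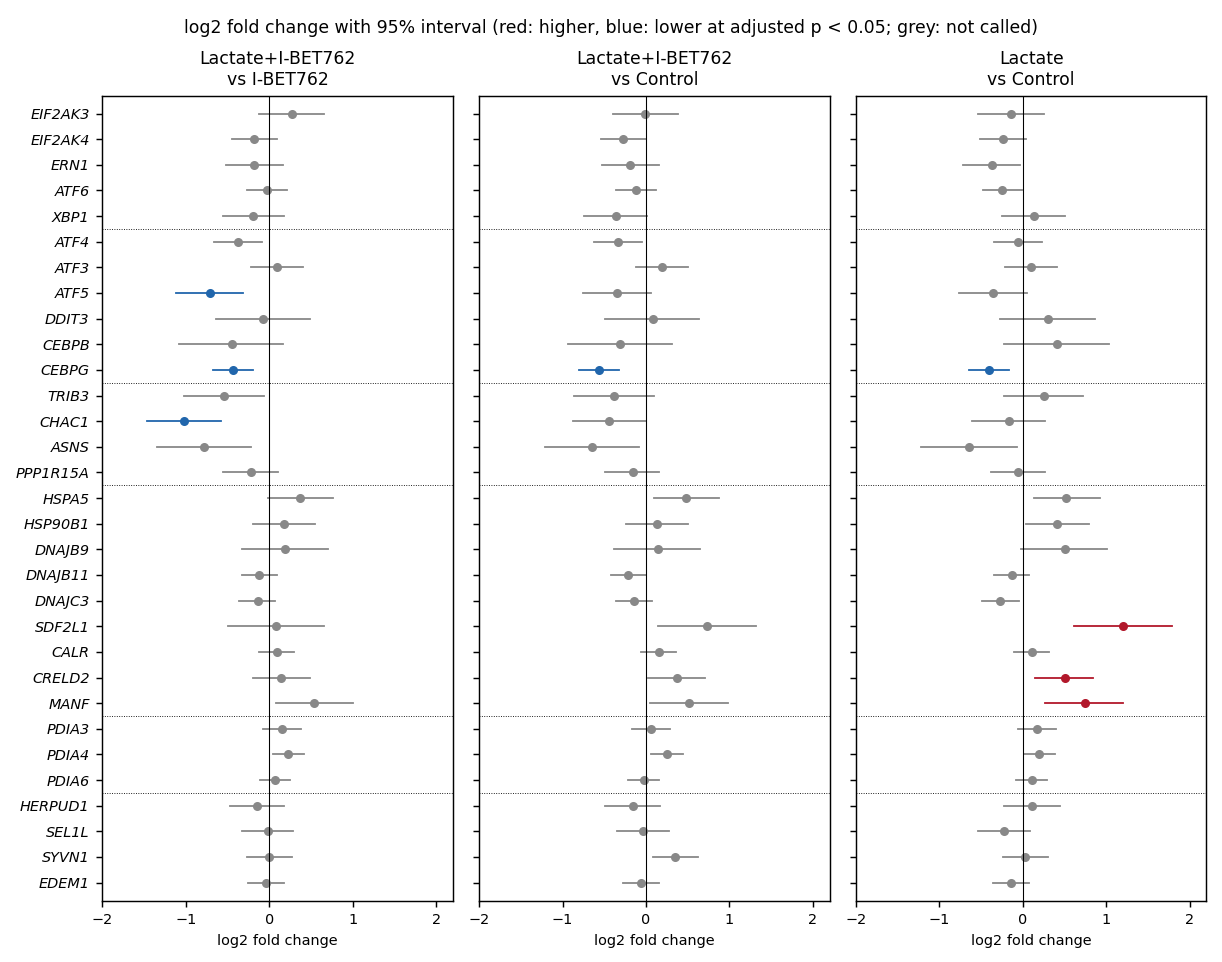
Log2 fold change (points) with its 95% interval (lines) of 31 genes in 3 comparisons, with calls in red (higher) and blue (lower) and the rest in grey. NUPR1 and CANX, which have wide intervals at low counts, are not drawn. CEBPG is called lower in all 3 panels, CHAC1 and ATF5 are called lower in the left panel, and SDF2L1, CRELD2 and MANF are called higher in the right panel.

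I-BET762 against control gave no call among the 33 genes in edgeR or in DESeq2, beside 0.442% of all genes called. At an unadjusted p under 0.05 there were 3, beside 11.4% of all genes. The libraries of 2 genes (6.06%) did not overlap between the groups, beside 10.8% of all genes, and both were higher with the inhibitor. SDF2L1 had 17.6, 16.0, 12.3 and 13.7 CPM in the I-BET762 libraries, against 9.6, 10.3, 6.96 and 11.2 CPM in the Control libraries. Its log2 fold change was 0.65 ± 0.28 (SE), with an adjusted p of 0.359. SYVN1 had 71.5 to 89.8 CPM in the I-BET762 libraries, against 59.3 to 70.6 CPM in the Control libraries, a log2 fold change of 0.35 ± 0.13 (SE) with an adjusted p of 0.229. Its exons overlap those of FAU and MRPL49. CHAC1 had 36.6, 39.8, 50.7 and 52.8 CPM in the I-BET762 libraries, against 24.8, 19.0, 28.9 and 47.7 CPM in the Control libraries. Control replicate 4 lay within the I-BET762 range, and the log2 fold change was 0.58 ± 0.21 (SE) with an adjusted p of 0.209.

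ATF4 differed by 0.03 ± 0.14 and HSPA5 by 0.11 ± 0.19 on the log2 scale between I-BET762 and Control cells (95% intervals -0.25 to 0.32 and -0.28 to 0.50). Of the 11 genes of ATF4, its partners and effectors, 9 had a log2 fold change above 0, a split that became 5 of 11 with the offset for GC content and length. From the further lists only WFS1, an ER membrane protein that restrains ATF6, was called, at 85.6 ± 9.47 CPM in I-BET762 and 53.5 ± 6.78 CPM in Control cells, a log2 fold change of 0.68 ± 0.14 (SE) with an adjusted p of 0.0473. With the offset it was 0.46 and not called, nor was it called without the pair of libraries that went against their labels.

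The inhibitor in the presence of lactate was read from the libraries with both treatments against those with lactate. No gene of the response was called by edgeR, nor any of the 14690 genes (0.0%). At an unadjusted p under 0.05 there were 5 of the 33, beside 15.6% of all genes. DESeq2 called 1, NUPR1, beside 0.282% of the genes it fitted. NUPR1, a small stress-induced chromatin protein, had 0.82, 0.35, 0.55 and 0.75 CPM in the Lactate+I-BET762 libraries, against 7.73, 2.47, 1.93 and 3.57 CPM in the Lactate libraries. The groups were well apart but rested on 5 to 76 counts per library, and the log2 fold change was -2.61 ± 0.59 (SE) with an adjusted p of 0.221. Without the pair of libraries that went against their labels it was called at -2.60 (adjusted p 0.0254). Libraries did not overlap for 4 of the 33 genes (12.1%), beside 7.6% of all genes: NUPR1, XBP1, CHAC1 and CEBPG, all lower with both treatments. For XBP1 the Lactate+I-BET762 libraries lay at 81.7 to 99.1 CPM, against 108.5 to 153.0 CPM in the Lactate libraries, a log2 fold change of -0.49 ± 0.18 (SE) with an adjusted p of 0.273.

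Both treatments against control gave 1 call among the 33 genes (3.03%), beside 20.7% of all genes. CEBPG had 95.7 to 100.6 CPM in the Lactate+I-BET762 libraries, against 115.2 to 168.3 CPM in the Control libraries, and fell by 0.56 ± 0.11 (SE) with an adjusted p of 0.00272. It was called in every alternative fit, with log2 fold changes of -0.66 to -0.45. Libraries did not overlap for 10 of the 33 genes (30.3%), beside 31.2% of all genes. On the higher side were SDF2L1, MANF, HSPA5, PDIA4 and ATF3, and on the lower side CEBPG, ATF4, NUPR1, EIF2AK4 and DNAJC3. The log2 fold changes were 0.73 ± 0.28 for SDF2L1, 0.51 ± 0.22 for MANF, 0.48 ± 0.19 for HSPA5 and -0.34 ± 0.14 for ATF4 (SE), with adjusted p-values of 0.0751, 0.108, 0.0778 and 0.0874. Without Lactate replicate 1, which is in neither of these groups but adds to the shared estimate of spread, 10 of the 33 genes were called, a share of 30.3% beside 31.3% of all genes in that fit. Without the pair of libraries that went against their labels 6 were called, beside 20.1% of all genes, with PDIA4 and SYVN1 higher, and CEBPG, XBP1, NUPR1 and CHAC1 lower. With the offset 7 were called, all lower, beside 13.8% of all genes: ATF4 (-0.55), ATF5 (-0.76), CEBPB (-1.26), CEBPG (-0.45), TRIB3 (-0.88), CHAC1 (-1.07) and PPP1R15A (-0.49). Among the further ATF4 targets, a list chosen with earlier results known, 8 fell and 1, DDIT4, rose (52.9% of 17, beside 20.7% of all genes). Of the other lists, 2 of 13 genes of eIF2 control were called (15.4%). So were 3 of 19 of ER folding and translocation (15.8%) and 2 of 19 of ER quality control and signalling (10.5%). SLC7A11 fell by 1.18 ± 0.16 (adjusted p 0.000221). With the offset none of the 17 targets rose, beside 13.8% of all genes called. Those that fell with it were ALDH1L2, MTHFD2, PHGDH, PSAT1, SLC3A2, SLC7A11, SLC7A5 and XPOT.

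The effect of lactate with the inhibitor was compared with its effect without it by the interaction of the treatments. None of the 33 genes was called by edgeR or DESeq2, nor any of all genes by edgeR (0.0%). At an unadjusted p under 0.05 there were 4 of the 33, beside 6.09% of all genes. CHAC1 fell by 1.02 on the log2 scale with lactate in I-BET762 cells and differed by -0.17 with lactate in cells without it, and the difference of these was -0.85 ± 0.29 (SE) with an adjusted p of 0.7. For SDF2L1 the difference was -1.12 ± 0.39 (SE), also with an adjusted p of 0.7. A call with lactate in the presence of the inhibitor and not in its absence, or the reverse, was therefore not shown to be a difference between these conditions. The comparisons share libraries: Control libraries serve in 3 of them and Lactate+I-BET762 libraries in 3.

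The mean over a list in each library shows how the branches varied. The 12 chaperones and isomerases with a mean of at least 10 CPM stood 0.16 to 0.26 above the Control mean (log2) in the Lactate+I-BET762 libraries, at 0.71, 0.23, 0.04 and 0.22 in Lactate replicates 1 to 4, at -0.07 to 0.21 in the I-BET762 libraries and at -0.17 to 0.13 in the Control libraries. Lactate replicate 1 stood alone above the others. The 9 genes of ATF4, its partners and effectors at this level stood at -0.37 to -0.12 in the Lactate+I-BET762 libraries, at 0.36, 0.04, -0.33 and -0.13 in the Lactate libraries, at 0.09 to 0.20 in the I-BET762 libraries and at -0.27 to 0.26 in the Control libraries. All libraries with both treatments were below all I-BET762 libraries for this list, while the Lactate libraries spanned the Control range. The 17 further ATF4 targets stood at -0.50 to -0.37 in the Lactate+I-BET762 libraries, at -0.51 to -0.08 in the Lactate libraries, at -0.18 to 0.05 in the I-BET762 libraries and at -0.30 to 0.16 in the Control libraries. In these means Lactate replicate 1 was high for ATF4 and its partners and low, at -0.41, for the further targets. The part of depth, of gene length trends and of this library in these values was not tested beyond the fits described.

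**Figure D4:**
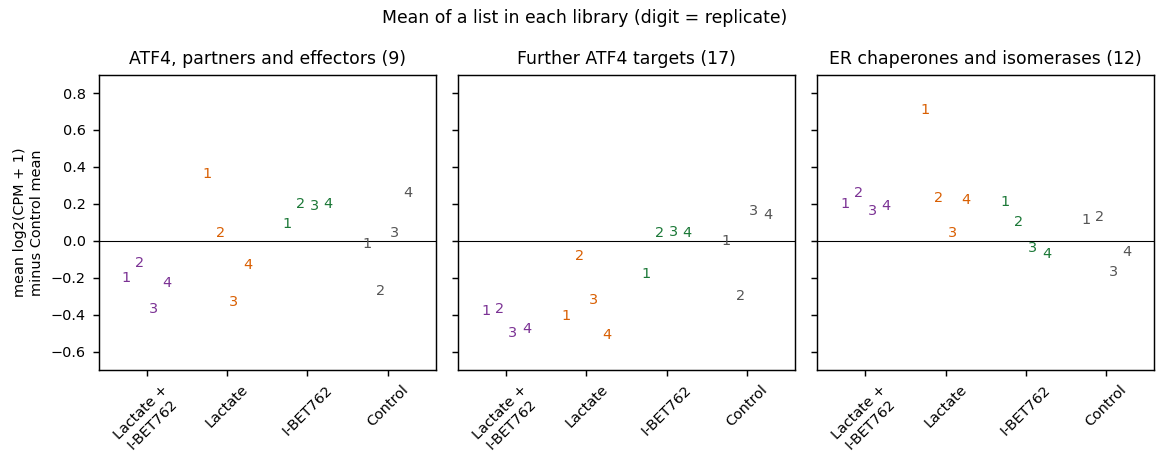
Mean difference of log2(CPM + 1) from the Control mean in each library (digit gives the replicate) for 9 genes of ATF4, its partners and effectors (left), 17 further ATF4 targets (middle) and 12 ER chaperones and isomerases (right). The Lactate+I-BET762 libraries lie at -0.37 to -0.12, at -0.50 to -0.37 and at 0.16 to 0.26 in the 3 panels.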

How the data were processed

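Polyadenylated RNA of 16 samples was sequenced, per the labels' protocols, from 800 ng each, with a strand-marking kit and single reads of 75 bp. The authors deposited raw counts per Ensembl gene. The submitters' processing notes name STAR 2.6.1c and DESeq as tools, and GRCh38.p12 and hg38 as builds. Which program counted the reads, with which strand setting and annotation, is not given in the sources used here. Symbols and coordinates came from a gene name table and GENCODE release 29. No sample column was left out.

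From these counts, genes were kept by filterByExpr (minimum count 10, minimum total 15), scaled by TMM and tested in 1 quasi-likelihood model of 4 group means in edgeR 4.0.16 (R 4.3.3), with 12 residual degrees of freedom and a biological coefficient of variation of 0.183 in common. Calls are two-sided at a Benjamini-Hochberg adjusted p under 0.05 over all 14690 genes. CPM values use TMM-scaled library sizes, except the sums of cell type markers and the limit given for SESN2, which use total counts. The labels call the replicates independent, without saying how, so p-values measure the spread between these samples. The closest replicate pair, I-BET762 replicates 3 and 4, differed beyond sampling noise (chi-square per degree of freedom 2.27).

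The genes and lists were chosen with earlier results of these data known. Values in every library are given for ATF4, DDIT3, TRIB3, CHAC1, ASNS, XBP1, HSPA5 and HERPUD1 and for called genes whose groups did not overlap; those of CRELD2, MANF and NUPR1 and the promoters were chosen after their values were seen. Up to 3 members of each further list were named by the smallest p with lactate; others were named after their values were seen. The further lists held 4 untested genes (GDF15, PCK2, TXNDC5 and DERL3). Counts were also simulated for lactate against control over 14690 genes. On these the test recovered 42 of 100 genes changed 1.5-fold and 87 of 100 changed 2-fold, with 9 of 138 calls false. Those rates hold for the simulated counts alone. Whether they carry over to the measured libraries, which differed in the ways described above, was not tested. Alternatives were RLE size factors, no filter, DESeq2 1.42.0, replicate number as a block, an offset for GC content and exon length smoothed with mgcv 1.9.3 (99.37% of genes have both values), the compared groups alone, and fits without single libraries or pairs of libraries.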

Additional observations from a re-analysis of the deposited data

Results flagged for a closer look

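In 10 of 132 combinations of a gene and a group, a single library stood apart by Dixon's criterion at the 95% level, where chance alone gives about 6.6 at 1 in 20. The library labelled I-BET762 replicate 2, whose HEXIM1 level was low for its label, held 3 of them. TRIB3 was at 156.2 CPM, against 103.3 to 107.5 CPM in the other I-BET762 libraries. PPP1R15A, a subunit of an eIF2 phosphatase, was at 108.2 CPM, against 91.5 to 92.9 CPM, and NUPR1 at 3.59 CPM, against 0.8 to 1.0 CPM. The library labelled Control replicate 2 was high for SYVN1, at 70.6 CPM, against 59.3 to 61.1 CPM in the other Control libraries.

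Lactate replicate 1 was high for HSP90B1, at 2402.7 CPM, against 1126.4 to 1328.2 CPM in the other Lactate libraries, and low for PDIA4, at 479.8 CPM, against 513.0 to 517.1 CPM. Lactate replicate 4 was low for ATF6, at 39.0 CPM, against 53.0 to 55.7 CPM, and for DNAJC3, at 55.7 CPM, against 73.5 to 76.5 CPM. Lactate replicate 2 was high for CEBPG, at 124.1 CPM, against 101.0 to 103.7 CPM. Lactate+I-BET762 replicate 2 was also high for CEBPG, at 100.6 CPM, against 95.7 to 96.5 CPM, a gap that is small beside the difference from the other groups. The cause of these values was not tested.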

How the results depend on the processing

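No called value changed sign under the alternatives run, and RLE size factors kept every count of called genes of the response within 1.5 times. Percentages in brackets below give the share of all genes in that fit that were called. With lactate against control, 4 of the 33 were called (23.7%). The count was 7 with the replicate block (28.9%) and 9 with the block and the offset for GC content and length (19.9%). It was 0 with the compared groups fitted alone (6.33%) and 1 to 7 without single libraries (12.4% to 33.3%). With Lactate replicates 1 and 4 left out, a choice made after seeing the data, it was 2 (19.5%). For I-BET762 against control the count was 0 (0.442%). It was 2 without those Lactate libraries (5.4%) and 0 to 1 without single libraries (0% to 3.48%). For both treatments against I-BET762 the count was 3 (4.9%). It was 6 with the block and offset (10.3%), 8 with the groups alone (18%) and 7 without those Lactate libraries (15.1%). Without single libraries it was 1 to 7 (1.92% to 11.3%). For both against lactate the count was 0 (0%), and 0 to 0 without single libraries (0%). It was 1, NUPR1, with no filter on low counts (0.631%) and in DESeq2 (0.282%). The same gene was called without the libraries labelled Control 2 and I-BET762 2 (0.403%). For both against control the count was 1 (20.7%). It was 5 with no filter (8.24%), 6 with the block (24.2%) and 7 with the offset (13.8%). With block and offset it was 9 (17.6%), and with the groups alone 10 (33.5%). Without the libraries labelled Control 2 and I-BET762 2 it was 6 (20.1%), and without those Lactate libraries 10 (35.8%). It was 3 in DESeq2 (11.1%) and 1 to 10 without single libraries (at most 31.3%). The interaction gave 0 throughout. The cause of these shifts was not tested.

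The offset called ATF4, ATF5, CEBPG, CHAC1 (lower) and HSP90B1 (higher) with lactate in place of SDF2L1, CRELD2 and MANF. Over all genes, 57.5% of calls with lactate were higher, against 48.4% with the offset and 80.9% with the groups alone. The 3486 calls with lactate became 2317 with the offset and 889 with the groups alone. The 65 with I-BET762 became 492 with no filter, 206 with the block, 0 with the offset (with or without the block), 496 with the groups alone, 10 without the libraries labelled Control 2 and I-BET762 2, 815 without the Lactate pair and 537 in DESeq2. The 720 with both against I-BET762 (68.1% higher) became 1154 with the offset (51.9% higher), 1507 with block and offset, 2535 with the groups alone, 469 without the labelled pair, 2280 without the Lactate pair and 1223 in DESeq2. The 0 with both against lactate became 197, 1, 2, 60 and 88 with no filter, block and offset, groups alone, without the labelled pair and in DESeq2. The 3045 with both against control (62.8% higher) became 2020 with the offset (50.3% higher), 4709 with the groups alone and 5402 without the Lactate pair, and the interaction gave 3 with no filter.

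Whether replicate numbers pair the samples is not given in the labels, and in no comparison did every pair of libraries with the same number have deviations that correlated above 0.1. Of 24 such pairs 16 did (range -0.26 to 0.421), 2 or 3 of 4 in each comparison and all 6 of replicate 3, and 12 of 24 correlated best with their own number, so a partial pairing is possible and the counts with the block are given above. Counts of ASNS, CANX and NUPR1 reached at most 48, 42 and 76, which limits the precision of their values.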
